A study of Mus musculus with 5 samples.

Results

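Genes of the unfolded protein response and the integrated stress response were followed in the atrioventricular canal (AVC) of mouse hearts from control embryos and from embryos with a conditional deletion of Sox9. The 10 genes were taken by symbol from a list, and all 10 were found, with 1 row each, among the 14697 transcripts of the deposited expression table. They divide into 6 genes of the ATF4-CHOP arm (Ddit3, Atf4, Trib3, Ppp1r15a, Gdf15 and Stc2) and 4 genes of endoplasmic reticulum (ER) chaperoning and degradation (Derl3, Herpud1, Sdf2l1 and Hspa5). The genes were selected on their levels in the mutant (cKO) relative to the control (WT) in this same table, so those differences are a description and carry no test.

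The AVC is the segment between atria and ventricles whose endocardial cushions give rise to the valves. RNA came from C57BL/6 embryos at embryonic day 12.5 of 2 genotypes. The control, labelled WT, was Sox9fl/fl:+/+, that is, floxed Sox9 alleles without Cre. The mutant, labelled Sox9 cKO, was Sox9fl/fl:Tie2-Cre/+. Both genotypes therefore carry the floxed alleles, and Cre is present in the mutant alone. Tie2-Cre recombines in the endothelium, in mesenchyme derived from it and in blood lineages. The dissected tissue also holds myocardium, where this driver is not active. AVCs were pooled within a genotype, and the 2 libraries made from each were merged by the authors into 1 value. The spread between libraries and the read depth are therefore unknown, no p-value can be given, and a difference of 2-fold is used as a rule of size. The series also mapped SOX9 binding in AVC and limb, with heart input chromatin from embryonic day 10.5, and those peak lists were not used here because they carry no gene names and their build, mm9, differs from that of the gene tables.

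Misfolded protein in the ER is sensed by the membrane proteins PERK (Eif2ak3), IRE1 (Ern1) and ATF6. IRE1 splices Xbp1 mRNA, and XBP1 and cleaved ATF6 switch on ER chaperones and the machinery that extracts misfolded protein for degradation. PERK and other kinases, GCN2 (Eif2ak4) among them, phosphorylate the initiation factor eIF2alpha. This lowers general translation but favours translation of ATF4, a transcription factor that induces CHOP (Ddit3) and genes of amino acid supply. The kinases respond to different stresses (amino acid shortage, heme shortage, double-stranded RNA), so the ATF4-CHOP arm can be engaged without the ER folding arm. Much of the regulation of ATF4, ATF6 and XBP1 acts on translation, cleavage or splicing, which levels of mRNA per gene do not show.

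All 10 genes stood higher in the cKO value than in the WT value, by amounts from 1.15-fold (Hspa5) to 9.96-fold (Derl3) in the deposited values. Levels are nFPKM, the authors' further normalized fragments per kilobase of transcript (FPKM), so they can be compared between genes. Ratios of cKO to WT were taken on the log2 scale after adding 1 nFPKM to each value. From each, the median of -0.11 over all 13793 transcripts that reached 1 nFPKM in WT or cKO was subtracted (relative log2 ratio). By this measure all 10 lay above the all-transcript median, as 50.0% of all transcripts do by construction. At least 2-fold higher were 4 of the 10, Ddit3, Derl3, Stc2 and Gdf15, against 0.834% of all transcripts, and 8 were at least 1.5-fold higher against 3.44%. Without centring, a check chosen after seeing the data, 5 reached 1.5-fold, 4 of the 6 ATF4-CHOP genes and 1 of the 4 ER genes. None was 2-fold lower, against 0.674%. Since the values of this same contrast led to the choice of the genes, nothing is read from these shares. The nearest values on either side of the 2-fold line were those of Gdf15 (1.37) and Ppp1r15a (0.72).

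**Figure D1:**
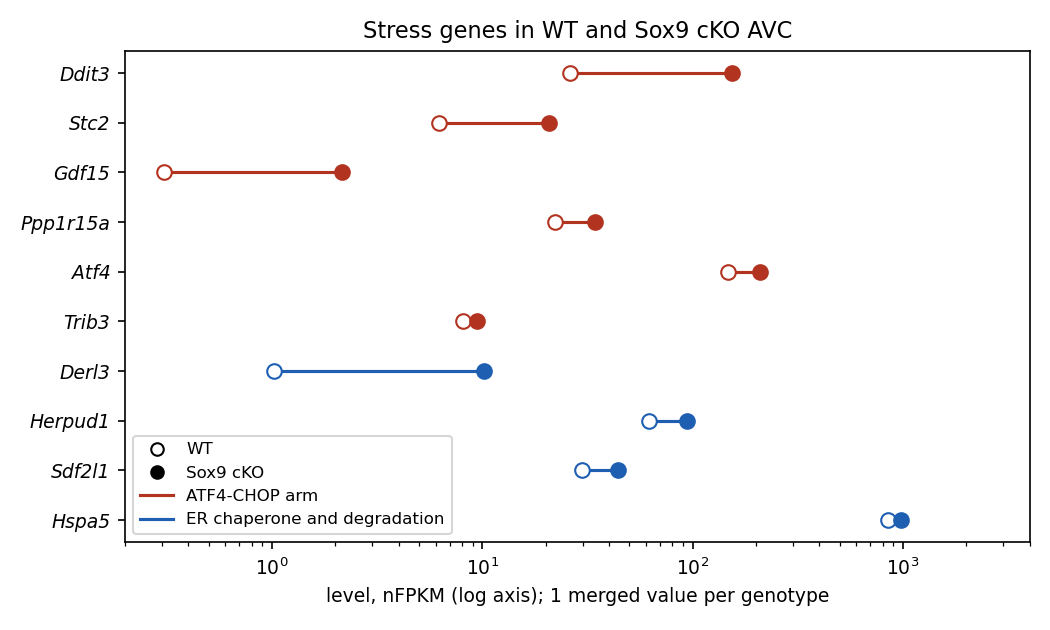
Levels of the 10 genes in nFPKM on a log axis, with 1 merged value per genotype (open circles WT, filled circles Sox9 cKO), red for the ATF4-CHOP arm and blue for ER chaperone and degradation genes. Every filled circle lies to the right of its open circle, with the longest lines at Derl3 (1.03 to 10.2), Gdf15 (0.31 to 2.15) and Ddit3 (26.2 to 154) and the shortest at Hspa5 and Trib3.

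In the ATF4-CHOP arm the 6 genes differed widely from each other. With 1 nFPKM added, the transcription factor at its end had the largest ratio, while in the deposited values Gdf15 (6.98-fold) lay above it (5.90-fold). Ddit3, which encodes CHOP, a transcription factor that promotes cell death under prolonged stress, stood at 26.2 nFPKM in WT and 154 nFPKM in cKO. That is a relative log2 ratio of 2.62, rank 6 from the top of the 13793 transcripts, and among 1918 transcripts of like level (the higher of both values within 2-fold) 1 had a higher ratio. Atf4, the factor upstream of it, stood at 147 nFPKM in WT and 210 nFPKM in cKO, a relative log2 ratio of 0.62. Its transcript level thus differed by far less than that of its target. The level of Ddit3 was 0.18 times that of Atf4 in WT and 0.74 times in cKO.

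The 2 secreted proteins of this arm were also past 2-fold, from low levels. Stc2, a secreted glycoprotein induced by ATF4, stood at 6.21 nFPKM in WT and 20.7 nFPKM in cKO (relative log2 ratio 1.69, rank 24). Gdf15, a stress-induced member of the TGF-beta family, was the lowest of the 10 in both genotypes, at 0.31 and 2.15 nFPKM (1.37, rank 44). Gdf15 passed the filter of 1 nFPKM only through its cKO value. With 5 nFPKM added in place of 1, its relative log2 ratio was 0.51, under the 2-fold line.

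The 2 genes that feed back on the pathway stood under 2-fold. Ppp1r15a encodes GADD34, the stress-induced subunit that directs a phosphatase to eIF2alpha and restores translation. It stood at 22.0 nFPKM in WT and 34.2 nFPKM in cKO (relative log2 ratio 0.72). Trib3, a pseudokinase induced by ATF4 and CHOP, stood at 8.06 and 9.48 nFPKM (0.32), the lowest ratio of the arm. Of all transcripts, 11.0% had a higher ratio than Trib3, so a direct target of the pathway lay inside the middle 90% of transcripts (-0.45 to 0.49) while Ddit3 lay far outside it.

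Among the 4 ER genes, 1 low-level gene was past 2-fold and the abundant chaperone was not. Derl3 encodes a derlin, a membrane protein of the channel through which misfolded proteins leave the ER. It stood at 1.03 nFPKM in WT and 10.2 nFPKM in cKO (relative log2 ratio 2.58, rank 8), and 2 of 3621 transcripts of like level had a higher ratio. Herpud1, a membrane scaffold of ER-associated degradation, stood at 62.3 and 93.5 nFPKM (0.68). Sdf2l1, a soluble ER protein that works with the chaperone complex around BiP, stood at 29.8 and 44.1 nFPKM (0.66). These 2 lay close together, with Sdf2l1 at 1.48-fold in the deposited values.

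Hspa5, which encodes BiP, the main ER chaperone, was the most abundant of the 10 in both genotypes, at 849 nFPKM in WT and 976 nFPKM in cKO. Its relative log2 ratio of 0.31 was the smallest of the 10, and 11.6% of all transcripts had a higher one. Among 161 transcripts of like level, 33 did. In absolute terms the difference of Hspa5 (127 nFPKM) was as large as that of Ddit3 (128 nFPKM), since its level is much higher. The level of Hspa5 was 32.5 times that of Ddit3 in WT and 6.32 times in cKO.

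**Figure D2:**
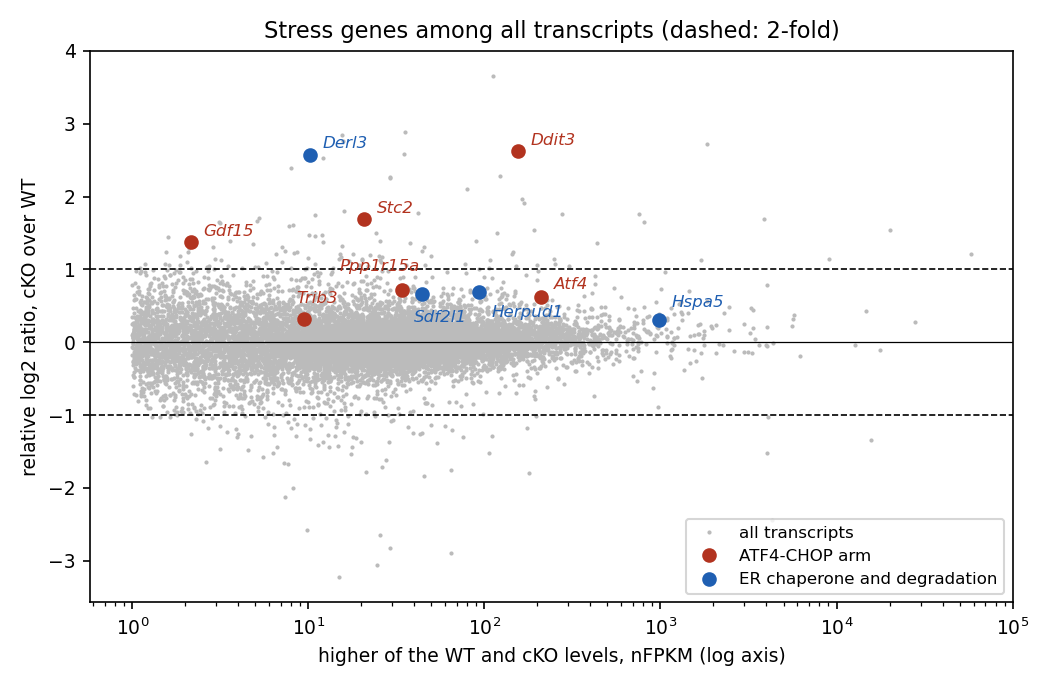
Relative log2 ratio of cKO to WT (0 is the all-transcript median, dashed lines mark 2-fold) against the higher of both levels in nFPKM on a log axis, for the 13793 transcripts (grey) and the 10 genes (red and blue). Ddit3 and Derl3 stand at 2.62 and 2.58, above nearly all transcripts, while Trib3 and Hspa5 stand at 0.32 and 0.31, within the grey cloud.

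How much a ratio of this size stands out depends on the level. Of 1640 transcripts whose higher value lay between 1 and 3 nFPKM, the class of Gdf15, 1.10% were at least 2-fold higher in cKO. In the class from 10 to 30 nFPKM, that of Derl3 and Stc2, the share was 0.87% of 3926. Between 30 and 100 nFPKM, the class of Ppp1r15a, Sdf2l1 and Herpud1, it was 0.30% of 4376. Of 1716 transcripts at 100 nFPKM or more, the class of Ddit3, Atf4 and Hspa5, it was 1.52%, a class that also holds the erythroid globins. The middle 90% of ratios ran from -0.66 to 0.70 in the lowest class, from -0.33 to 0.38 between 30 and 100 nFPKM, where it was narrowest, and from -0.28 to 0.48 in the highest.

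The order of levels changed in 1 main respect. In WT, from the top, it was Hspa5, Atf4, Herpud1, Sdf2l1, Ddit3, Ppp1r15a, Trib3, Stc2, Derl3 and Gdf15. In cKO Ddit3 came right after Hspa5 and Atf4, and Stc2 and Derl3 had passed Trib3. Which neighbours in these orders differ beyond the spread between libraries is unknown, because the libraries were merged. The authors' deposited table gives log2 fold changes of 2.64 for Ddit3, 2.84 for Derl3, 1.75 for Stc2 and 1.68 for Gdf15, and of 0.31 for Hspa5 and 0.32 for Trib3.

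The contrast between the arms moved with the processing. The median relative log2 ratio was 1.05 over the 6 ATF4-CHOP genes and 0.67 over the 4 ER genes, against 0 over all transcripts, a difference of 0.38. At least 2-fold higher were 3 of the 6 and 1 of the 4, against 0.834% of all transcripts. The genes were selected on these ratios, so nothing is read from the counts or from the difference of medians. With 5 nFPKM added the difference of medians was -0.0039, and with a filter of 3 nFPKM, which leaves out Gdf15, it was 0.048. It was 0.60 with 0.1 nFPKM added and 0.53 with the log2 fold changes of the authors' deposited table. The ranges overlapped almost fully, from 0.32 to 2.62 in the first arm and from 0.31 to 2.58 in the second. Past 2-fold in the ATF4-CHOP arm were Ddit3, Stc2 and Gdf15, the last of which passed the filter only through its cKO value. Trib3 lay near the bulk of transcripts. In the ER arm only Derl3, at 1.03 nFPKM in WT, was past 2-fold, and Hspa5 lay near the bulk. Summed over the genes, the first arm stood at 210 nFPKM in WT and 431 nFPKM in cKO, and the second, most of which is Hspa5, at 942 and 1123 nFPKM.

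Promoter sequence was examined because ER chaperone and degradation genes are known to share the ER stress response element (ERSE), bound by ATF6 with the factor NF-Y and by XBP1. RefSeq windows of GRCm38.p6 from 250 bases before to 50 bases after the start were at hand for all 10 genes (11 windows, since Gdf15 has 2). ERSE was searched as CCAAT, 9 bases of any kind and CCACG, on both strands. It was found in 39 of 32851 windows (0.12%), among them those of Hspa5 and Derl3. ERSE-II, searched as ATTGG, 1 base of any kind and CCACG, was found in 12 windows (0.037%), among them that of Herpud1. The element TGACGTGG (UPRE) was in 0.68% of all windows and in none of the 10 genes. The C/EBP-ATF element TGATGNAAN (CARE), through which ATF4 and CHOP act, was in 3.95% of all windows and in those of Herpud1 and Trib3. ERSE and ERSE-II matches never shared a window, while 2 windows held both ERSE and UPRE, and 1 window each held ERSE-II with UPRE and ERSE-II with CARE. A match is a match of letters only, and none of the deposited data show binding there.

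The 170 bases before the start are shown for the 3 ER genes with a match, and for Ddit3, which had the largest ratio with 1 nFPKM added (in the deposited values those of Derl3 and Gdf15 were larger) and no exact match to the 4 motifs in its window. Only exact matches inside the window were counted. The Ddit3 bases shown hold a stretch 1 letter off ERSE on the opposite strand, so absence of an exact match does not show absence of the element. Capitals mark ERSE in Hspa5 and Derl3 and, in Herpud1, first CARE and then ERSE-II. All 4 are on the plus strand and are read 5′ to 3′ towards the start. Positions are chr2:34771920-34772089 for Hspa5, chr10:75893228-75893397 for Derl3, chr8:94386259-94386428 for Herpud1 and chr10:127290623-127290792 for Ddit3.
Hspa5: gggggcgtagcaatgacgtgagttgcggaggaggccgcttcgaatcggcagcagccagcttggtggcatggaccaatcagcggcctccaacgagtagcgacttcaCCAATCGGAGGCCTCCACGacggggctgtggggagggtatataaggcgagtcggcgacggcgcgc
Derl3: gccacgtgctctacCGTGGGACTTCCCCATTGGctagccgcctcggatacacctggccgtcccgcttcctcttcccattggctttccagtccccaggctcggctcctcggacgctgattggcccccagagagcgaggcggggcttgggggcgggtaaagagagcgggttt
Herpud1: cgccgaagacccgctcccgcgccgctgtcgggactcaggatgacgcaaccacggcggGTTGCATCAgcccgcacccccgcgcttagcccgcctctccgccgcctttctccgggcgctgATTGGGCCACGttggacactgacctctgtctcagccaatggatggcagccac
Ddit3: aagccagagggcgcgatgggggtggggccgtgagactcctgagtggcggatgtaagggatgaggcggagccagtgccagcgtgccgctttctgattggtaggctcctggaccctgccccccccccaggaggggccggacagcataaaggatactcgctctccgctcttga
The match in Hspa5 lies 65 to 47 bases before the start in the orientation of the gene, that in Derl3 156 to 138 bases before it on the opposite strand, and those in Herpud1 113 to 105 bases (CARE, opposite strand) and 52 to 42 bases (ERSE-II) before it. Hspa5 and Derl3 thus carry the same element but lie at the 2 ends of the ER genes in their ratios, 0.31 and 2.58.

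Close relatives of the 10 genes mostly stood near the all-transcript median. The derlins Derl1 (62.6 nFPKM in WT and 52.3 nFPKM in cKO) and Derl2 (22.7 and 22.4 nFPKM) had relative log2 ratios of -0.15 and 0.08. Derl3 accordingly made up 1.19% of the summed derlin level in WT and 12.1% in cKO. Sdf2, the relative of Sdf2l1, stood at 62.4 and 61.3 nFPKM (0.08), and Herpud2 at 32.1 and 32.6 nFPKM (0.13). Ppp1r15b, the constitutive counterpart of Ppp1r15a, stood at 63.3 and 56.6 nFPKM (-0.05). In each of these families the gene with the highest ratio was the one among the 10. The 10 were chosen on their ratios and the relatives by family, though not blind to earlier results of these data. Nothing is read from this. Ppp1r15b remained the more abundant of its pair in both genotypes. Trib1 and Trib2 had relative log2 ratios of -0.21 and -0.16, and Atf5, which like ATF4 is controlled through eIF2alpha, 0.08. Stc1 was the exception among the relatives. This paralog of Stc2 stood at 9.93 nFPKM in WT and 22.3 nFPKM in cKO, a relative log2 ratio of 1.20, past 2-fold like Stc2.

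Transcripts of the sensors differed little. Eif2ak3 (PERK) stood at 19.0 nFPKM in WT and 17.4 nFPKM in cKO (relative log2 ratio -0.02), and Eif2ak4 (GCN2) at 19.7 and 20.1 nFPKM (0.13). Ern1 (IRE1) stood at 11.2 and 8.93 nFPKM (-0.19). Atf6 (37.2 and 43.9 nFPKM, 0.34) and Xbp1 (103 nFPKM in cKO, 1.15-fold its WT level, 0.30) were slightly above the all-transcript median, at the size of Hspa5. Of all transcripts, 0.834% were at least 2-fold higher and 0.674% lower, so a short list without such a gene is near that share. None of the 10 listed sensor and processing genes that passed the filter was past 2-fold (median 0.06). Neither was any of 15 genes for the kinases, phosphatase and exchange factor of eIF2alpha (median 0.03). Both medians turned negative without centring (-0.04 and -0.08). Splicing of Xbp1 cannot be read from a value per transcript.

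The wider ATF4 programme did not stand as high as Ddit3. Of 61 other genes in 4 lists (ATF4 and CHOP targets, amino acid synthesis, amino acid transporters and cytosolic aminoacyl-tRNA synthetases), 56 passed the filter. Of these, 40 lay above the all-transcript median, and their median was 0.14. At least 1.5-fold higher were 4, against 3.44% of all transcripts. None was 2-fold higher or lower, which is near the shares of all transcripts, 0.834% and 0.674%. The largest ratios were those of Ero1l, an ER oxidase and CHOP target (43.3 nFPKM in WT and 78.5 nFPKM in cKO, 0.95), and Ddit4, an inhibitor of mTOR signalling (22.8 and 40.2 nFPKM, 0.90). Asns, asparagine synthetase, stood at 35.4 and 49.7 nFPKM (0.58).

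Textbook ATF4 and CHOP targets differed among themselves; Atf3, Sesn2 and Chac1 are named after their values were seen. Atf3, a transcription factor of the same pathway, stood at 25.1 nFPKM in WT and 24.7 nFPKM in cKO (0.08), and Sesn2 at 10.3 and 10.6 nFPKM (0.14). Chac1, which degrades glutathione, stood at 0.25 nFPKM in WT and just above the filter in cKO, 3.95-fold in the deposited values. Its relative log2 ratio was 0.78, and with a pseudocount of 0.1 it was the 1 gene of its list past 2-fold. Among genes of amino acid synthesis, Shmt2 (0.47) had the largest ratio after Asns, and Gpt2 (-0.26) the lowest. The amino acid transporters Slc1a5, Slc7a1 and Slc3a2 stood at 0.51, 0.49 and 0.44, with a list median of 0.23 over 8 genes. The 20 tRNA synthetases, all of them in the table, lay between -0.14 and 0.29 (Iars), with a median of 0.11 that was 0.0064 without centring.

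The other ER genes also stayed under 2-fold. Of 85 listed genes of folding, degradation and translocation, 83 were in the table and passed the filter. Of these, 48 lay above the all-transcript median, and the median was 0.06. At least 1.5-fold higher was 1, against 3.44% of all transcripts. None was 2-fold higher or lower, which is near the shares of all transcripts, 0.834% and 0.674%. Among 32 chaperones and folding enzymes (median 0.13), Ero1l, which is also in the ATF4 list, was followed by Manf, a secreted ER stress protein (83.4 and 105 nFPKM, 0.43), and Hsp90b1, the ER form of HSP90 (812 and 987 nFPKM, 0.39). Txndc5, a disulfide isomerase, had the lowest ratio (314 and 239 nFPKM, -0.28). The median of 28 genes of ER-associated degradation was -0.02, with 11 above the all-transcript median. Among these, Selk (0.26), Syvn1, a ubiquitin ligase of the pathway (0.21), and Erlec1 (0.21) stood highest and Ube2j2 lowest (-0.31), so that Derl3 and Herpud1 stood above every one of them. The 23 translocation genes had a median of 0.04, which was -0.07 without centring. The 10 genes were chosen on their ratios, and the lists by function but with earlier results of these data known. A gap between them is therefore no test of either.

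**Figure D3:**
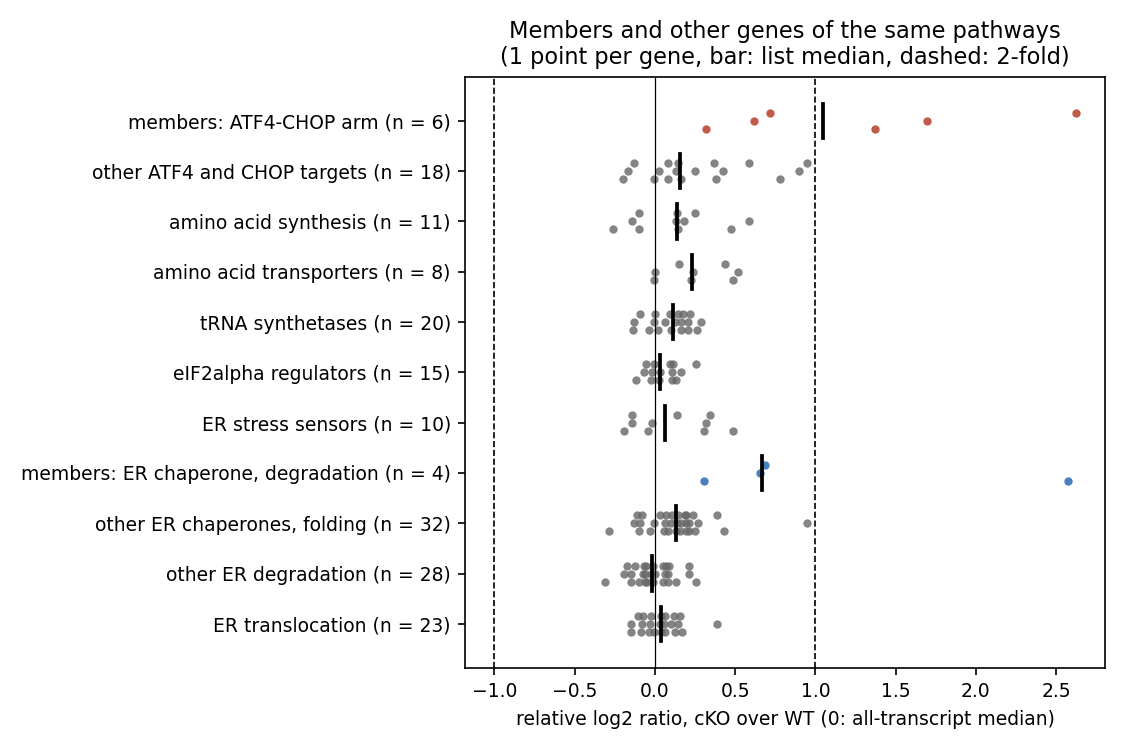
Relative log2 ratio of cKO to WT for each gene of the 2 member groups (red and blue) and of 9 lists of other genes of the same pathways (grey), with 1 point per gene that passed the filter, a bar at each list median and dashed lines at 2-fold. The medians of the grey lists lie between -0.02 and 0.23, and the grey points end at 0.95 (Ero1l), below Gdf15, Stc2, Derl3 and Ddit3.

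The genes nearest to Ddit3 in their pair of levels, out of 11146 protein-coding ones that reached 3 nFPKM in WT or cKO, were Bhlhe40, Ier3 and Slc2a3. Bhlhe40, a transcriptional repressor, stood at 26.4 nFPKM in WT and 123 nFPKM in cKO, Ier3 at 47.4 and 168 nFPKM, and Slc2a3, a glucose transporter, at 36.1 and 89.1 nFPKM. Likeness here is the distance between pairs of log2(nFPKM + 1) over 2 values, so it shows only that both levels were similar.

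Other groups of genes moved between the same 2 values. Sox9 stood at 36.7 nFPKM in WT and 14.7 nFPKM in cKO (relative log2 ratio -1.16). All 13 listed valve mesenchyme markers were below the all-transcript median, 4 of them past 2-fold, with a summed level of 4061 nFPKM in WT and 2607 nFPKM in cKO. All 12 erythroid markers in the table were above it, 7 past 2-fold, with a summed level of 41191 and 93380 nFPKM. All 17 hypoxia genes were above it too, with a median of 0.69 and 5 past 2-fold (2 without centring or with 5 nFPKM added), Ndrg1 the highest (12.5 and 41.9 nFPKM, 1.77). Of 19 immediate early genes, 18 passed the filter and 5 were past 2-fold, all higher, with Fos the highest (5.71 and 29.1 nFPKM, 2.27).

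Among markers of the remaining cell types, 14 for cardiomyocytes had a median of 0.02 and summed to 49034 and 49977 nFPKM, 13 for endothelium a median of 0.35 (1082 and 1282 nFPKM) and 9 for epicardium a median of 0.75 (305 and 389 nFPKM). The 12 macrophage markers had a median of -0.16 (215 and 182 nFPKM), 7 of 8 markers of neural crest, glia and neurons one of -0.46 (157 and 176 nFPKM) and 5 of 8 of liver and yolk sac one of 0.03 (12.1 and 13.8 nFPKM), and no listed marker in the table was at 0 in either genotype. The labels name mesenchyme, endothelium and myocardium, and defining markers of all 3 were present in both genotypes. The pools also differed in the Y-linked genes, with Ddx3y at 4.26 nFPKM in WT and 35.2 nFPKM in cKO. The relative log2 ratios of Ddx3y (2.89) and Uty (2.76) lay above that of Ddit3 (2.62), and the other listed Y-linked genes stood lower. The part of cell makeup, oxygen supply, handling or the sex of the embryos in the values of the 10 stress genes was not tested. In these bulk values a change in the number of cells of a type and a change in RNA per cell cannot be told apart.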

How the data were processed

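RNA-seq of the AVC was deposited as 1 table with an nFPKM value per transcript for WT and for Sox9 cKO, which the authors normalized beyond FPKM and merged over duplicate libraries, per the file headers. Not given in the sources used here are the further normalization and the tool versions. TopHat2, Cufflinks, edgeR and mm9 appear in the submitters' processing notes. The authors' log2 fold change is a deposited comparison with no p-value.

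The ratio log2((cKO + 1)/(WT + 1)) was computed for 13793 of 14697 transcripts, those that reached 1 nFPKM in WT or cKO, and centred on its median. A row stood for a gene, and for the 3 symbols with several rows the highest did. With 1 merged value per genotype there was no test, and 2-fold was a rule of size. Members, the 24 other lists and the motifs were chosen with earlier results of these data known. Named genes were the 10 members, fixed relatives and sensors, list genes past 2-fold and up to 4 further ones per pathway list with at least 3 nFPKM, and up to 2 per marker list. Genes outside this rule are said to be named after their values were seen. Alternatives were other pseudocounts, filters, centring, the authors' fold change, summed rows and a 1.5-fold rule. The centred ratio and the 2-fold rule were tested on simulated data, and the other steps were not. Python 3.11.15, numpy 2.4.6, pandas 2.3.3 and matplotlib 3.10.9 were used. The depth behind each value is unknown, so no interval is given.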

Additional observations from a re-analysis of the deposited data

How the results depend on the processing

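All 10 genes kept a ratio above 0 under every alternative setting that gave a value. Each was selected and is higher in cKO, so other pseudocounts, filters or no centring could hardly turn its sign. Nothing is read from the kept sign. Ddit3, Stc2 and Derl3 stayed past 2-fold, with ranges of 2.44 to 2.67, 1.28 to 1.83 and 1.42 to 3.31. Gdf15 ranged from 0.51 with a pseudocount of 5, under 2-fold, to 2.58 with a pseudocount of 0.1, and a filter of 3 nFPKM removed it. Under a 1.5-fold rule the counts were 5 of 6 ATF4-CHOP genes and 3 of 4 ER genes, with 475 transcripts higher and 389 lower. The difference between the arm medians was 0.60 with a pseudocount of 0.1, -0.0039 with one of 5, 0.048 with a filter of 3 nFPKM and 0.53 with the authors' deposited fold change. Transcripts past 2-fold, 115 higher and 93 lower (55.3% higher), numbered 235 and 261 (47.4%) with a pseudocount of 0.1 and 45 and 36 with one of 5. They numbered 82 and 135 (37.8%) without centring and 145 and 165 (46.8%) with the authors' deposited fold change. In all, 96 of the 110 alternative values for the genes, arms and transcript counts stayed on their side of 2-fold or within tolerance (0.1 for the difference of medians, 1.5 times for counts). Some of these could hardly change. Each of the 10 genes has 1 row, so summing rows left its ratio almost as it was, and centring cancels in the difference of medians. A fall from 3 to 2 ATF4-CHOP genes past 2-fold, with a pseudocount of 5 or a filter of 3 nFPKM, also counted as within tolerance. Leaving out a replicate was not possible with merged values, and depth is unknown.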

Other observations

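The lists of cytosolic heat shock, mitochondrial folding, oxidative stress and p53 target genes had medians near the all-transcript median, none with a gene past 2-fold. In lists this short that is near the shares of all transcripts, 0.834% higher and 0.674% lower. The hypoxia and immediate early lists, given above, each held 5 genes past 2-fold. The 17 cytosolic heat shock genes had a median of 0.11, and those with at least 3 nFPKM lay between -0.23 (Chordc1) and 0.29 (Hspa4l). Under that level, Hspa1b (1.46 nFPKM in WT and 2.39 nFPKM in cKO, 0.57) and Hspa1a (1.43 and 2.23 nFPKM, 0.52) stood highest of the list. Both were picked for mention with their ratios already known. The 11 genes of mitochondrial protein folding had a median of 0.06. Of 12 oxidative stress genes, 10 passed the filter, with a median of 0.12. Among these Hmox1, which breaks down heme, stood at 25.3 nFPKM in WT and 38.3 nFPKM in cKO (0.69), Nfe2l2 at 0.35, Srxn1 at 0.23 and Keap1 at -0.26. The 18 p53 targets had a median of 0.05. Cdkn1a, which encodes the cell cycle inhibitor p21, stood at 20.7 and 28.8 nFPKM (0.56), Eda2r at 0.33, Btg2 at 0.26 and Trp53inp1 at -0.44. Without centring the medians of the mitochondrial and p53 lists were -0.04 and -0.06.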
